A study of Mus musculus with 2 samples.

Results

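NRF2 (gene Nfe2l2) is the transcription factor that switches on the antioxidant and detoxifying defence of the liver. Its inhibitor KEAP1 holds it in the cytoplasm and hands it to a ubiquitin ligase until oxidants or electrophiles modify cysteines of KEAP1, after which NRF2 enters the nucleus, pairs with a small MAF protein and binds antioxidant response elements near its targets. In the liver this programme maintains glutathione, reduces thioredoxin, degrades haem and detoxifies quinones and epoxides.

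The RNA of Nfe2l2, of Keap1 and of 8 target genes (Nqo1, Gclc, Gclm, Hmox1, Txnrd1, Srxn1, Osgin1 and Ephx1) was followed, which are 10 of the 19465 genes in the count tables. They were chosen by symbol, each had 1 row, and all 10 had at least 100 UMIs (unique molecular identifiers, the counted molecules) over both sections. Of all genes, 15743 had at least 1 UMI.

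The material was 1 liver section from a mouse with wild-type AEG-1 (genotype AEG-1-WT, here WT) and 1 from a littermate with the C75S mutant of AEG-1 (AEG-1-C75S, here C75S), both untreated females of 8 weeks. AEG-1, encoded by Mtdh, is a scaffold protein that carries a palmitate on a cysteine, and in the mutant, made with CRISPR/Cas9 as a knock-in, that cysteine is a serine. Sections of 5 μm of fixed tissue were hybridised with probe pairs on a 10x Visium slide, on which each spot covers a small region with several cells. The comparison asks how the mutation goes with gene expression, and where in the liver lobule.

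Each genotype had 1 section of 1 animal, so genotype, animal and section cannot be told apart. Spots of a section do not replicate a genotype, and no test of the genotypes could be made. Intervals given below are 95% intervals of counting error only. The WT section had 2309 spots and 42246988 UMIs, and the C75S section 2163 spots and 41674347 UMIs, after spots of more than 50000 UMIs were left out. Levels are given as CPM, the UMIs of a gene divided by all UMIs of the section or group of spots and multiplied by 1000000. Mtdh had 74.4 CPM in WT and 73.3 in C75S, which does not check the mutation, since the probes do not read the codon. Levels are not compared between genes, because each gene has probes of its own. Of the hepatocyte markers, 5 of 6 were in the tables and together held 176458 CPM in WT and 184801 in C75S, so both sections carried the RNA of their labelled tissue.

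The sequence that NRF2 and small MAF proteins bind is what makes a gene a candidate direct target, so the promoters of the genes were searched for it, in the 250 bases before each RefSeq start (GRCm38.p6, the same assembly as mm10). RefSeq promoters were at hand for 8 of the 10 genes, 10 promoters in all. Gclc and Hmox1 had none at hand and were not searched. The letters TGACNNNGC, a short core of the element, and the fuller forms TGACTCAGC or TGAGTCAGC were looked for on both strands, and these 2 searches can hit the same bases, since a TGACTCAGC also holds the core. The core was in 3 of the 10 promoters, those of Nfe2l2, Gclm and Txnrd1, and was in 10.2% of the 32851 promoters searched. A fuller form was in 2, those of Srxn1 and Osgin1, and in 0.706% of all promoters. These 5 windows are shown 5′ to 3′ on the strand of the gene, with the match in capitals, first the fuller forms and then the cores.

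Osgin1, chr8:119437028-119437076, plus strand: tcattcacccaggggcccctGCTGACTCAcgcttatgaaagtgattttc
Srxn1, chr2:152105459-152105507, plus strand: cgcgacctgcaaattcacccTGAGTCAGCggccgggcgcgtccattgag
Gclm, chr3:122245403-122245451, plus strand: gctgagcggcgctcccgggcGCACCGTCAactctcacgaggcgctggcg
Txnrd1, chr10:82859094-82859142, plus strand: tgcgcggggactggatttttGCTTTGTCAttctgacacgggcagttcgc
Nfe2l2, chr2:75704875-75704913, minus strand: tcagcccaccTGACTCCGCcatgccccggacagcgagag

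The match in Osgin1 begins 99 bases before its start and reads TGAGTCAGC on the other strand, and that in Srxn1 begins 45 bases before its start. The Osgin1 window lies inside the span of the gene in RefSeq, chr8:119425882-119446257, ahead of one of its later starts. The Gclm and Nfe2l2 windows each overlap an exon of a noncoding RNA that runs on the opposite strand, Gm46822 and E030042O20Rik. A match describes letters in a window and does not show binding.

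Between the sections, Osgin1, Hmox1 and Gclc were the members that stood at least 1.3-fold higher in C75S. None stood that much lower, and NRF2 and its inhibitor differed little. The 3 of 10 that were higher compare with 4.94% of all 11248 genes with at least 100 UMIs, and the 0 of 10 that were lower with 9.95%. Since the 10 genes were chosen with earlier results of these data known, these counts are descriptions and no measure of an excess. The median log2 ratio of C75S over WT was -0.05 over the 10 genes and also -0.05 over all genes. All of these statements are about the pair of libraries.

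**Figure D1:**
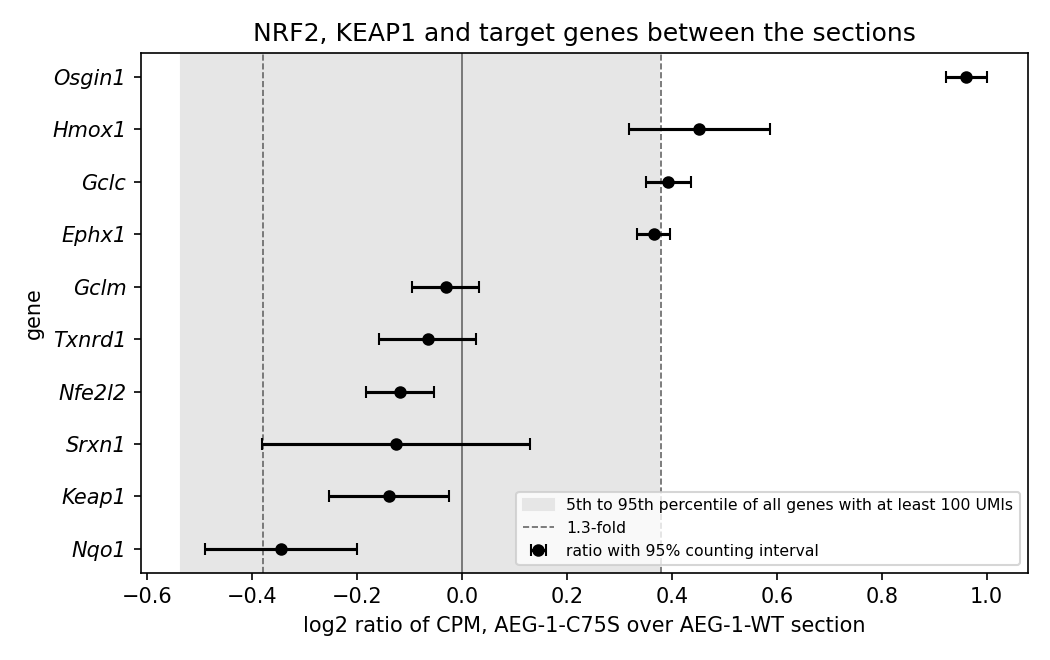
Log2 ratio of CPM, C75S over WT section, for the 10 genes in order of their ratio, with 95% counting intervals as bars, 1.3-fold in either direction as dashed lines, and the 5th to 95th percentile of the 11248 genes with at least 100 UMIs in grey. Osgin1 lies apart at 0.96, Hmox1 and Gclc lie just past the upper dashed line at 0.45 and 0.39, and Nqo1 is lowest at -0.34.

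Nfe2l2, the transcription factor itself, had 4097 UMIs or 97.0 CPM in WT and 3724 UMIs or 89.4 CPM in C75S. Its log2 ratio was -0.12 (-0.18 to -0.05). Keap1, the substrate adaptor that targets NRF2 for degradation, had 1320 UMIs or 31.2 CPM in WT and 1183 UMIs or 28.4 CPM in C75S, a log2 ratio of -0.14 (-0.25 to -0.02). Both genes were slightly lower in C75S, by less than 1.3-fold. Of all genes, 36.6% had a lower ratio than Nfe2l2 and 33.3% a lower ratio than Keap1, so neither was near an end of the distribution.

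The glutathione genes differed from each other. Glutamate-cysteine ligase makes the first, rate-limiting bond of glutathione and has a catalytic subunit, Gclc, and a modifier subunit, Gclm. Gclc had 7744 UMIs or 183 CPM in WT and 10031 UMIs or 241 CPM in C75S, 1.31-fold higher, with a log2 ratio of 0.39 (0.35 to 0.44). Gclm had 3938 UMIs or 93.2 CPM in WT and 3801 UMIs or 91.2 CPM in C75S, with a log2 ratio of -0.03 (-0.10 to 0.03). The catalytic subunit was therefore higher in C75S while the interval of the modifier subunit held 0. Gclc was only just inside the limit of 1.3-fold, and its log2 ratio was 0.33 (0.22 to 0.44) when every spot was thinned to 3000 UMIs.

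Thioredoxin reductase 1, encoded by Txnrd1, keeps cytosolic thioredoxin reduced, and sulfiredoxin, encoded by Srxn1, restores overoxidised peroxiredoxins. Txnrd1 had 1973 UMIs or 46.7 CPM in WT and 1860 UMIs or 44.6 CPM in C75S, a log2 ratio of -0.07 (-0.16 to 0.03). Srxn1 had the fewest UMIs of the 10 genes, 271 or 6.41 CPM in WT and 245 or 5.88 CPM in C75S, a log2 ratio of -0.13 (-0.38 to 0.13). Both intervals held 0, and a difference within them was not detectable at this depth.

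The detoxifying enzymes had ratios of opposite sign. Nqo1, a quinone reductase and a classical readout of NRF2 activity, had 900 UMIs or 21.3 CPM in WT and 699 UMIs or 16.8 CPM in C75S. It was 1.27-fold lower in C75S, with a log2 ratio of -0.34 (-0.49 to -0.20), just outside the limit. Ephx1, the microsomal epoxide hydrolase, had 14617 UMIs or 346 CPM in WT and 18575 UMIs or 446 CPM in C75S. It was 1.29-fold higher, also just outside the limit, with a log2 ratio of 0.37 (0.33 to 0.40).

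Osgin1 encodes an oxidative stress-induced growth inhibitor. It had 7810 UMIs or 185 CPM in WT and 15000 UMIs or 360 CPM in C75S, a log2 ratio of 0.96 (0.92 to 1.0). Its ratio was above that of 99.5% of all genes, and it was the one member past 1.5-fold. Hmox1, haem oxygenase 1, opens the haem ring and releases iron, carbon monoxide and biliverdin. It had 789 UMIs or 18.7 CPM in WT and 1065 UMIs or 25.6 CPM in C75S, a log2 ratio of 0.45 (0.32 to 0.59).

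The difference in Osgin1 ran through most of the section. Over single spots, the median Osgin1 level was 171 CPM in WT, with the middle of the spots (25th to 75th percentile) between 107 and 247 CPM, and 345 CPM in C75S, with the middle between 253 and 459 CPM. Of the C75S spots, 89.2% were above the median of the WT spots. The same share was 73.5% for Ephx1 and 68.1% for Gclc, so their distributions overlapped more. At least 1 Osgin1 UMI was found on 94.7% of WT and 98.4% of C75S spots, and after thinning each spot to 3000 UMIs on 41.3% (39.3% to 43.4%, exact binomial interval) and 65.1% (63.0% to 67.1%).

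**Figure D2:**
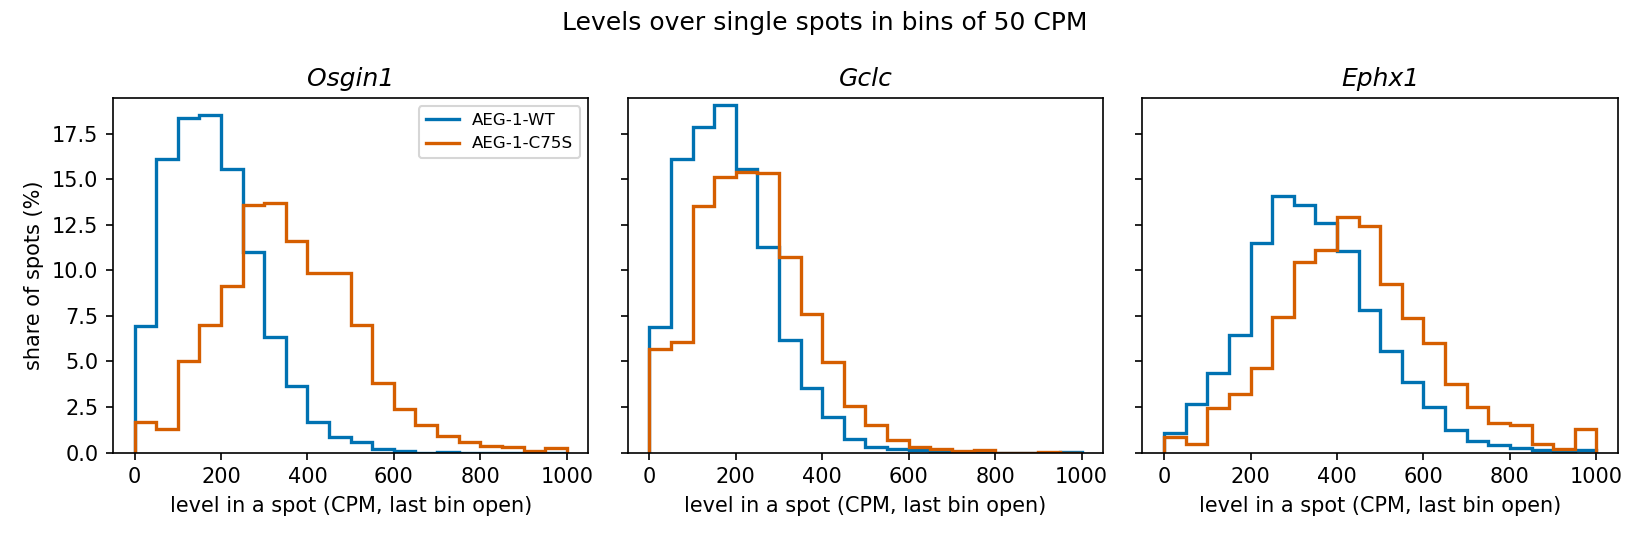
Share of spots (%) against the level in a spot in bins of 50 CPM, for Osgin1, Gclc and Ephx1 in the WT section (blue, 2309 spots) and the C75S section (orange, 2163 spots), with levels above the axis put in the last bin. The orange outline of Osgin1 is shifted most, with medians of 171 and 345 CPM, while those of Gclc and Ephx1 overlap more.

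The lobule axis was drawn from expression. In liver lobules, blood flows from the portal tract to the central vein, and periportal and pericentral hepatocytes divide metabolic work along that way. Spots of each section were ranked by the ratio of the periportal gene Cyp2f2 to the pericentral gene Cyp2e1, each with 1 UMI added, and cut into 5 equal groups. Hal, a periportal gene not used for the ranking, fell from 363 to 83.9 CPM between the most periportal and the most pericentral group of WT and from 320 to 83.8 CPM in C75S. Cyp1a2, a pericentral gene not used either, rose from 163 to 871 CPM and from 167 to 760 CPM.

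Few of the 10 genes were past 1.3-fold along this axis. Without thinning, Keap1, Nqo1, Gclc, Gclm and Ephx1 had ratios of pericentral over periportal with intervals above 0 in both sections. The share of all genes with such intervals was not computed, so this is no sign that the 10 genes stand out. Only Srxn1 was at least 1.3-fold higher in the most pericentral than in the most periportal group in both sections, and none was periportal in that sense. This 1 of 10 compares with 6.83% of the 10216 genes with at least 100 UMIs in each section, and the 0 of 10 with 3.38%. The median log2 ratio of pericentral over periportal was 0.19 in WT and 0.20 in C75S over the 10 genes, and 0.12 and 0.09 over all genes.

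**Figure D3:**
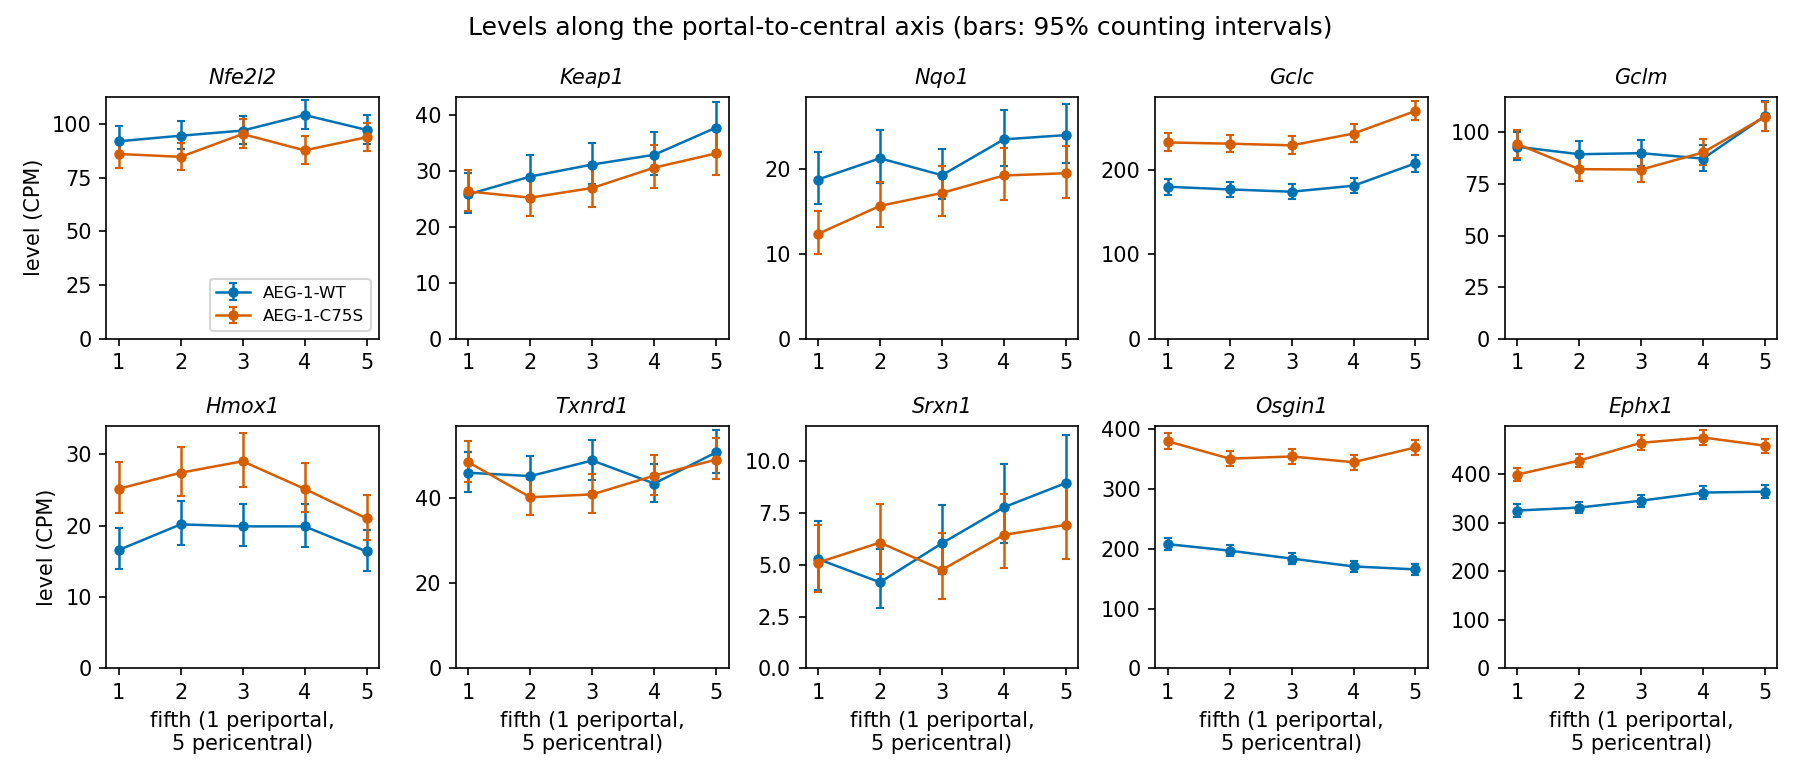
Level (CPM) of each of the 10 genes in 5 equal groups of spots, from the most periportal (1) to the most pericentral (5), in the WT section (blue) and the C75S section (orange), with 95% counting intervals. The curves of Osgin1, Gclc and Ephx1 are separate in all 5 groups, those of Gclm and Txnrd1 cross, and Osgin1 is lower toward the central vein in the WT section, from 208 to 166 CPM.

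From portal to central, Srxn1 stood at 5.28, 4.15, 6.04, 7.78 and 8.95 CPM in WT and at 5.11, 6.07, 4.76, 6.44 and 6.93 CPM in C75S. Its log2 ratio of pericentral over periportal was 0.76 (0.19 to 1.35) in WT and 0.44 (-0.16 to 1.05) in C75S. The interval of the second section held 0, and the call was lost with 3 in place of 5 groups or with other marker genes for the axis.

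Keap1 was higher at each step toward the central vein in WT, with 25.8, 29.0, 31.1, 32.8 and 37.7 CPM, and stood at 26.3, 25.2, 26.9, 30.5 and 33.1 CPM in C75S. Its log2 ratio without thinning was 0.55 (0.29 to 0.81) in WT and 0.33 (0.07 to 0.60) in C75S. At that depth the RNA of the inhibitor was higher around the central vein in both sections. Nfe2l2 stood between 91.9 and 104 CPM in WT and between 84.6 and 95.2 CPM in C75S, with log2 ratios of 0.08 (-0.07 to 0.23) and 0.12 (-0.02 to 0.27). Without thinning, NRF2 RNA thus showed no slope that counting error allows to be told from 0. With spots thinned as for Gclc above, the Nfe2l2 log2 ratio in WT was 0.41 (0.04 to 0.77), on 147 pericentral and 111 periportal UMIs. That value was past 1.3-fold, and its interval lay above 0 but also held the WT value without thinning. In C75S the thinned Nfe2l2 ratio was 0.15 (-0.25 to 0.55). For Keap1 the thinned ratio was 0.28 (-0.38 to 0.95) in WT, on 45 pericentral and 37 periportal UMIs. It was 0.39 (-0.34 to 1.14) in C75S, on 38 and 29 UMIs. Both Keap1 intervals held 0 and also held the values without thinning. The thinned values thus do not tell the slope of Keap1 from that of Nfe2l2.

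Nqo1 stood at 18.7, 21.2, 19.2, 23.4 and 23.9 CPM in WT and was higher at each step in C75S, with 12.3, 15.6, 17.1, 19.2 and 19.5 CPM. Its log2 ratio was 0.35 (0.04 to 0.67) in WT and 0.66 (0.29 to 1.03) in C75S, pericentral in both but past 1.3-fold only in the second. With each spot thinned to 3000 UMIs, which left 29 and 37 Nqo1 UMIs in the outer groups of WT, the WT value was -0.35 (-1.10 to 0.39), an interval that holds the value without thinning. Gclc and Gclm were highest in the most pericentral group of both sections, with log2 ratios of 0.21 in each section for Gclc and of 0.21 and 0.19 for Gclm. Ephx1 stood at 325 and 364 CPM in the outer groups of WT and at 400 and 459 CPM in those of C75S. These slopes were small: with the 20 most abundant genes left out of the totals, the log2 ratios were 0.09 and 0.10 for Gclc and 0.04 and 0.09 for Ephx1. Txnrd1 had log2 ratios of 0.14 (-0.06 to 0.35) and 0.02 (-0.19 to 0.22).

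Osgin1 went the other way in WT, with 208, 197, 184, 171 and 166 CPM from portal to central, a log2 ratio of -0.33 (-0.43 to -0.22). In C75S it stood at 380, 351, 355, 345 and 370 CPM, with a ratio of -0.04 (-0.11 to 0.03), which was -0.15 with the 20 most abundant genes left out of the totals. The difference between the sections was therefore larger in the most pericentral than in the most periportal group. The log2 ratio of C75S over WT was 0.87, 0.83, 0.95, 1.02 and 1.16 in the 5 groups, and the outer groups differed by 0.29 (0.16 to 0.41), counting error only. The groups were cut within each section and need not be the same positions in both. In the most pericentral group, the median of the ratio used for ranking was 0.038 in WT and 0.060 in C75S.

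Hmox1 was highest away from both ends, at 20.2 CPM in the second group of WT and 29.0 CPM in the middle group of C75S, and lowest in the most pericentral group, at 16.4 and 21.0 CPM. In WT the intervals of these levels overlapped (17.3 to 23.4 and 13.7 to 19.5 CPM), and in C75S they did not (25.4 to 33.0 and 18.0 to 24.4 CPM). The Hmox1 log2 ratios of pericentral over periportal, -0.02 (-0.38 to 0.34) and -0.26 (-0.56 to 0.04), had intervals that held 0. Gclc, Hmox1, Osgin1 and Ephx1 were higher in C75S in 5 of 5 groups, and Nfe2l2 and Nqo1 were lower in 5 of 5. The Nfe2l2 intervals held 0 in the most periportal, the middle and the most pericentral group. Those of Nqo1 held 0 in the middle group and in both groups on its central side. The share of all genes with the same sign in every group was not computed, and the median gene was itself lower in C75S over whole sections, at -0.05. For Gclc the log2 ratio stayed between 0.37 and 0.42 along the axis, and for Ephx1 between 0.30 and 0.43. The outer groups of these 2 genes differed by 0.01 (-0.13 to 0.14) and 0.04 (-0.06 to 0.14).

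Liver cells other than hepatocytes also use NRF2 targets, and Kupffer cells, the resident macrophages, break down haem from red cells. In the 5% of spots with the highest share of Kupffer cell marker UMIs (115 spots in WT and 108 in C75S), Hmox1 stood at 30.5 CPM against 18.2 CPM in the other spots of WT, and at 44.2 against 24.7 CPM in C75S. The log2 ratios were 0.75 (0.32 to 1.15) and 0.84 (0.50 to 1.17). Hmox1 was the one member whose interval lay above 0 in Kupffer-rich spots of both sections. Gclc was lower there in both, with log2 ratios of -0.20 (-0.38 to -0.03) and -0.19 (-0.34 to -0.05). The share of all genes with such intervals was not computed. Of the Kupffer-rich spots, 5.2% in WT and 3.7% in C75S were in the most pericentral group. Their median was 14507 UMIs against 17004 in the other spots of WT, and 17414 against 18894 in C75S. The part of place or depth in these ratios was not tested. Along the axis, the summed Kupffer cell markers were highest in the middle group, at 1251 CPM in WT and 1670 CPM in C75S. They were lowest in the most pericentral group, at 939 and 1215 CPM, where Hmox1 was lowest too. The part of Kupffer cells in the course of Hmox1 along the axis was not tested.

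**Figure D4:**
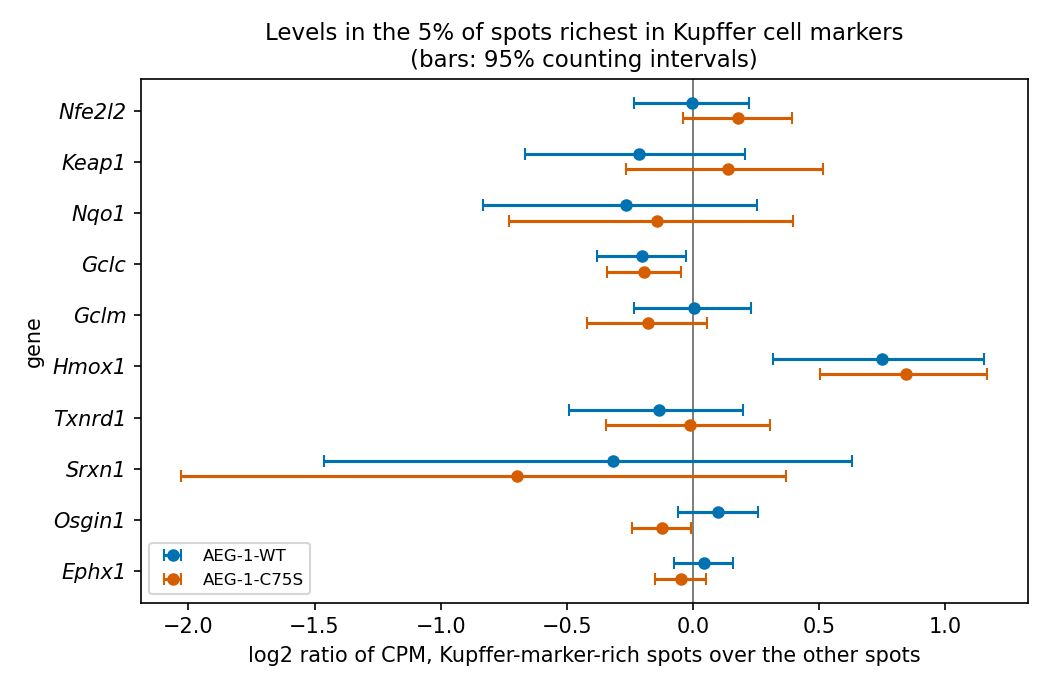
Log2 ratio of CPM of the 10 genes in the 5% of spots richest in Kupffer cell markers over the other spots of the same section, WT in blue and C75S in orange, with 95% counting intervals. Hmox1 is to the right of 0 in both sections, at 0.75 and 0.84, and Gclc lies to the left at -0.20 and -0.19.

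The Kupffer cell markers moved with the sections. All 8 were higher in C75S, and their sum was 1117 CPM in WT and 1459 CPM in C75S, a log2 ratio of 0.38. The markers differed unevenly. Clec4f and Csf1r differed least, with log2 ratios of 0.10 and 0.11, and Marco, a scavenger receptor, differed most, at 34.8 and 107 CPM. More Kupffer cells and more marker RNA per cell cannot be told apart in these spots. When spots of both sections were put into 5 groups of like share of the other 7 markers, Hmox1 was higher in C75S in 5 of 5 groups, but the log2 ratio averaged 0.28 and ranged from 0.0042 to 0.56. In the groups with the smallest shares, Hmox1 stood at 10.9 CPM in WT and 16.1 CPM in C75S, and in those with the largest at 28.6 and 35.4 CPM. The mean for Hmox1 was below 1.3-fold, and the groups with the smallest and the next smallest share, at 0.56 and 0.46, were past it. The mean was 0.98 for Osgin1, 0.42 for Gclc and 0.36 for Ephx1.

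Markers of the remaining cell types were read beside the genes as well. In C75S the summed markers of portal connective tissue (log2 ratio -0.97), smooth muscle (-1.77), cholangiocytes (-0.42) and red blood cells (-0.59) were lower. The stellate cell sum was higher (0.32), with 4 of 5 markers higher and Lrat lower, at -0.48 (-0.61 to -0.35). The sums of endothelium (0.00) and leukocytes (0.09) were close to equal. Cd74 made up most of the leukocyte sum, 366 of 412 CPM in WT, and had a log2 ratio of 0.05. All 6 leukocyte markers were higher in C75S, S100a8 at 0.95 (0.53 to 1.38) and S100a9 at 1.09 (0.80 to 1.38). Without the spots rich in portal or blood markers, the higher genes stayed Osgin1, Hmox1 and Gclc, and Nqo1 passed 1.3-fold, with a log2 ratio of -0.38. Osgin1 was lower in spots rich in stellate markers, with log2 ratios of -0.25 in WT and -0.19 in C75S, and in spots rich in portal connective markers, with -0.21 and -0.13. Gclc was lower in spots rich in leukocyte markers too, with -0.23 and -0.24. Hmox1 had ratios above 0 in spots rich in stellate markers, 0.36 (-0.14 to 0.82) in WT and 0.58 (0.20 to 0.95) in C75S. In spots rich in leukocyte markers they were 0.57 (0.14 to 0.98) and 0.24 (-0.20 to 0.66). In C75S Hmox1 was lower in spots rich in smooth muscle markers, at -0.56, and in red blood cell markers, at -0.67. Gclm was higher in spots rich in red blood cell markers, with 0.20 (0.01 to 0.39) in WT and 0.49 (0.27 to 0.70) in C75S. These spots had a median of 17853 UMIs against 16808 in the other spots of WT, and 11408 against 19100 in C75S. The part of cell type mixture or of depth in these ratios was not tested.

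Genes with the most similar course were sought over 20 bins of spots along the axis in each section, 40 points in all, among 6882 genes with at least 1000 UMIs. These correlations are descriptions, since the bins of a section share a library. The 40 points also hold the difference between the sections, so genes with a like difference rank high. The C75S over WT difference of a gene found this way is therefore no separate result. For Osgin1 the most similar genes were Rgs16 (r = 0.98), Egfr (0.97) and Slc25a47 (0.97). Their log2 ratios of C75S over WT were 1.18, 1.10 and 0.78. Over the 20 bins of a single section, r with Osgin1 was 0.78 in WT and 0.65 in C75S for Rgs16, 0.69 and -0.20 for Egfr, and 0.87 and 0.51 for Slc25a47. For Ephx1 the most similar genes were Tmem56, Plin2 and Fos (r = 0.96, 0.95 and 0.95), and Fos stood at 3.81 CPM in WT and 32.9 CPM in C75S. Within WT and C75S alone, r with Ephx1 was 0.93 and 0.69 for Tmem56, 0.87 and 0.67 for Plin2, and 0.55 and 0.85 for Fos. For Gclc they were Hsdl2, Adipor2 and Crot (0.94, 0.93 and 0.93). Within WT and C75S alone, r with Gclc was 0.74 and 0.76 for Hsdl2, 0.62 and 0.83 for Adipor2, and 0.63 and 0.77 for Crot.

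The other genes differed less between the sections. For Gclm, Acacb (r = 0.80), Slc27a5 (0.78) and Pex5 (0.76) were most alike, and within single sections their r with Gclm lay between 0.77 and 0.83. For Keap1, Aadat, Gstm6 and Gpld1 were closest (0.76, 0.76 and 0.75). For Txnrd1, the nearest gene was another member, Gclm (0.66), ahead of Acp1 and Aco1 (0.64 each). For Nfe2l2, Hjurp, Copz2 and Cyp4b1 reached 0.64, 0.61 and 0.61.

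Among the 10 genes, the subunits of glutamate-cysteine ligase ran together along the axis, with r = 0.78 in WT and 0.61 in C75S over 20 bins each. Keap1 ran with Gclc (0.55 and 0.70), with Nqo1 (0.56 and 0.57) and with Gclm (0.54 and 0.59). Like values were held by Gclm with Txnrd1 (0.56 and 0.71), Nqo1 with Ephx1 (0.54 and 0.70) and Gclc with Srxn1 (0.57 and 0.54). The spread of r over pairs of all genes was not computed. Osgin1 ran against Ephx1 in both sections (-0.72 and -0.39), although both were higher in C75S. Nfe2l2 showed no r above 0.41 with any member in either section.

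The wider pathway gives the setting for these values. Of 69 further genes in 6 lists (partners and regulators of NRF2, glutathione and thioredoxin, detoxification, NADPH supply, haem and iron, and other antioxidant enzymes), 61 were in the tables and 59 had at least 100 UMIs. Of these, 3 were at least 1.3-fold higher in C75S and 2 lower, against 4.94% and 9.95% of all genes, and the median log2 ratio was -0.04. NADPH supply had 1 of 5 higher and a median of 0.25, the partners of NRF2 had 2 of 13 higher, 1 lower and a median of -0.05, and detoxification had 0 of 18 higher, 1 lower and a median of 0.01. No gene of the other 3 lists was past 1.3-fold.

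Maff, a small MAF protein that pairs with NRF2, had 457 UMIs in WT and 626 in C75S, a log2 ratio of 0.47 (0.30 to 0.65). The ratio of Mafk, another small MAF protein, was 0.06 (-0.09 to 0.21). Bach2, a repressor of the family that competes for MAF partners, was chosen after its values were seen and stood at 9.02 and 12.7 CPM, a ratio of 0.50 (0.30 to 0.69). Bach1, of the same family, went the other way, at 41.6 CPM in WT and 35.1 in C75S, with a ratio of -0.24 (-0.35 to -0.14). G6pdx, the entry enzyme of the pentose phosphate path, was also chosen after its values were seen. It rested on 45 and 70 UMIs, with a ratio of 0.66 (0.10 to 1.23). Sqstm1, the autophagy receptor p62 that sequesters KEAP1, had the most UMIs of its list and stood at 265 and 329 CPM, a ratio of 0.31 (0.28 to 0.35).

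Lower in C75S were Dcaf11, a ubiquitin ligase adaptor, at 310 and 211 CPM with a log2 ratio of -0.55 (-0.59 to -0.51), and Gsta3, a glutathione transferase, at 1811 and 1244 CPM with -0.54 (-0.56 to -0.53). Transferases have near-identical paralogs, so probes may take RNA of a neighbour, and their values are uncertain for that reason. The genes with the most UMIs in the other lists differed little. The log2 ratio was -0.10 for Txn1 (thioredoxin), 0.02 for Mgst1 (microsomal glutathione transferase), -0.18 for Idh1 (cytosolic isocitrate dehydrogenase), 0.13 for Fth1 (ferritin heavy chain) and -0.11 for Gpx1 (glutathione peroxidase). None of these 5 was past 1.3-fold.

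**Figure D5:**
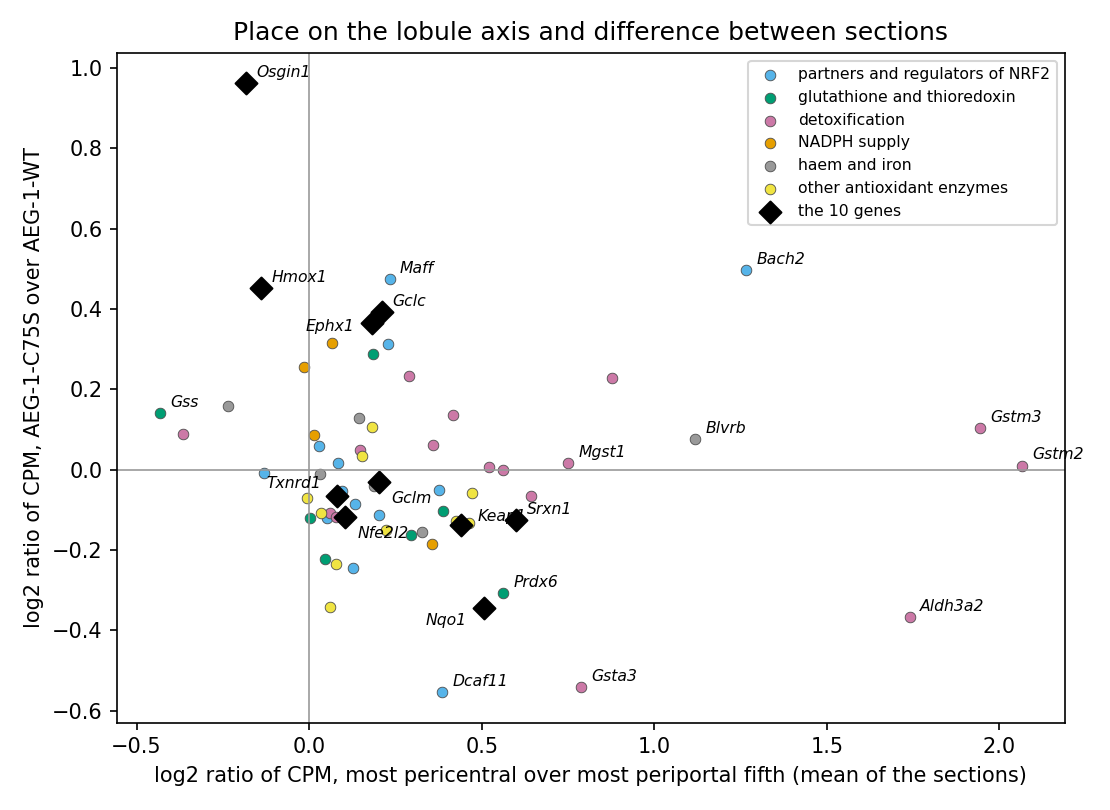
Log2 ratio of C75S over WT (vertical) against the log2 ratio of the most pericentral over the most periportal group, mean of both sections (horizontal), for the 10 genes (black diamonds) and the 57 genes of the 6 pathway lists with at least 100 UMIs in each section (circles coloured by list). Osgin1 is alone at the top at 0.96 and left of 0, with ratios along the axis of -0.33 in WT and -0.04 in C75S. Gstm2, Gstm3 and Aldh3a2 are far to the right, with ratios between the sections of 0.01, 0.10 and -0.37.

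Along the axis, the detoxification list differed from the 10 genes. Of its 17 genes with at least 100 UMIs in each section, 9 were pericentral by at least 1.3-fold in both sections and 0 periportal, beside 6.83% and 3.38% of all genes. The steepest, chosen after their values were seen, were the glutathione transferases Gstm2, 5.06-fold in WT and 3.46-fold in C75S, and Gstm3, 4.57-fold and 3.24-fold, and the aldehyde dehydrogenase Aldh3a2, 3.34-fold and 3.35-fold. Mgst1 was 1.71-fold and 1.66-fold pericentral and Gsta3 1.75-fold and 1.70-fold. Nqo1 and Ephx1, the detoxifying enzymes among the 10 genes, had less slope, at 1.28-fold and 1.58-fold for Nqo1 and 1.12-fold and 1.15-fold for Ephx1. Over all 6 lists, 14 of 57 genes were pericentral and 1, the glutathione synthetase Gss, periportal, at 0.72-fold and 0.76-fold. Gss makes the second bond of glutathione. Its ratio between the outer groups had the opposite sign to those of Gclc and Gclm, the subunits of the enzyme for the first bond. Neither Gclc nor Gclm was past 1.3-fold along the axis.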

How the data were processed

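Gene expression of 1 AEG-1-WT and 1 AEG-1-C75S liver section was measured with 10x Visium for fixed tissue. Per the submitters' processing notes and the methods, the authors deposited raw UMI counts per gene and spot made with Space Ranger 2.0.1 (mm10 reference and probe set), without normalization, and used Seurat 4.3.0 afterwards. No column of another sample was present (0 columns), and for 11 repeated gene symbols only the first row was used. Spot coordinates were not used here.

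Spots with at most 50000 UMIs were kept. UMIs were summed per section or group of spots and divided by their total (CPM). Log2 ratios carry exact conditional binomial intervals and levels exact Poisson intervals (95%), which cover counting error only. The precision of a gene follows its UMI sum. A ratio was called past 1.3-fold. The axis was (Cyp2f2 + 1)/(Cyp2e1 + 1) in 5 groups per section. Spots rich in a cell type were the 5% with the highest share of its markers. Ratios were tested on simulated data. The tools were python 3.11.15, numpy 2.4.6, scipy 1.17.1, pandas 2.3.3, matplotlib 3.10.9, and R 4.3.3 with edgeR 4.0.16 for TMM factors.

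The 10 genes and all lists were chosen with earlier results of these data known. Named were, besides the 10 genes, pathway genes past 1.3-fold with at least 1000 UMIs, the gene with most UMIs in each list, and, for each of the 10 genes with at least 2000 UMIs, the 3 genes of most similar course. Outside this rule, Bach2, G6pdx, Gstm2, Gstm3, Aldh3a2 and Gss were named after their values were seen. Bach1 and Mafk were named beside Bach2 and Maff as members of the same families. Of the 69 pathway genes, 8 were not analysed here. Alternatives covered the spot filter, the scaling, the depth, the axis, the fold limit and the spots left out. The grouping by Kupffer marker share was added after seeing the data.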

Additional observations from a re-analysis of the deposited data

How the results depend on the processing

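With 1 section per genotype, the limits are those of a pair of libraries, and genes with few UMIs, such as Srxn1 and Nqo1, carry the widest intervals. No paired analysis was possible because each genotype has 1 section. The count of higher genes was 3, and 4 with TMM factors, spots matched on total UMIs, totals without the 20 most abundant genes or centring on the median gene, where Ephx1 joined. It was 2 with each spot thinned to 3000 UMIs, where Gclc dropped out, and 1 (Osgin1) at 1.5-fold. The count of lower genes was 0, and 1 (Nqo1) with spots matched on total UMIs and without portal and blood spots. The pericentral count was 1 (Srxn1), and 0 with totals without the 20 most abundant genes, equal weight per spot, the axis from Hal, Gls2, Hsd17b13, Cyp1a2 and Oat, 3 groups in place of 5, or 1.5-fold. The 1 pericentral gene was Keap1 with common limits of the groups and Nqo1 without portal and blood spots. The cause of these changes was not tested. No called value changed its sign. Across the planned settings, the log2 ratio of C75S over WT ranged from 0.95 to 1.02 for Osgin1, from 0.45 to 0.59 for Hmox1, from 0.33 to 0.45 for Gclc, from 0.34 to 0.42 for Ephx1 and from -0.41 to -0.29 for Nqo1. Grouping by Kupffer marker share, chosen after seeing the data, gave 0.28 for Hmox1. The median of all genes moved between -0.06 and 0.01.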
